A study of Mus musculus with 6 samples.

Results

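The contractile apparatus of smooth muscle and the actin cytoskeleton that all cells share were followed here through 40 genes in urogenital sinus mesenchyme cells treated with estradiol (E2). The genes were taken by name, and every probe set of the array whose annotated symbol was one of them was read. The annotation names 12394 genes by a single symbol, and 37 of the 40 were among them, with 88 of the array's 22690 probe sets. Myh10, Rock2 and Ppp1r12a were not analysed here. The cells came from the urogenital sinus, the tissue from which the prostate buds, of male CD-1 mouse fetuses at gestation day 17, and were primary mesenchymal cells used after 1 passage. All of them grew in estrogen-free medium that held 690 pM dihydrotestosterone (DHT), an androgen, so the controls carried the androgen too. After 3 days of culture in it, 3 samples received 100 nM E2 and 3 control samples received its ethanol vehicle, each for 4 days. RNA of each sample was hybridized to 1 Affymetrix mouse 430A array. The sources do not say that the 3 samples of a group came from separate cultures or litters, so each p-value rests on variation among samples that may be no more than technical replicates.

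In smooth muscle, contraction starts when myosin light chain kinase, encoded by Mylk, phosphorylates the regulatory light chain, and myosin heavy chain then pulls on filaments of smooth muscle actin. Calponin, caldesmon, tropomyosin and transgelin sit on those filaments. Most of the genes of this apparatus are switched on by serum response factor (SRF), which binds a short AT-rich element called the CArG box, with myocardin or related proteins as its partners. The stroma around the prostatic ducts contains smooth muscle that differentiates from the urogenital sinus mesenchyme, whereas the cytoplasmic actins, filamins, actinins and focal adhesion proteins serve the shape and attachment of nearly every cell. The 40 genes were therefore divided into 9 restricted to smooth muscle among the cells of this tissue, although some also occur in myofibroblasts or other muscle (Acta2, Actg2, Tagln, Cnn1, Myh11, Smtn, Lmod1, Des and Myocd), 5 enriched in it, 1 skeletal muscle actin, 2 cytoplasmic actins, 11 general actin-binding genes, 5 of focal adhesions, 1 intermediate filament gene and 6 regulators.

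The CArG boxes are shown because they are the sequence feature that links these genes to SRF. The genes were taken by name and not by a search for boxes, but known targets of SRF are among them. RefSeq promoter windows on the mouse build GRCm38.p6, running from 250 bases before to 50 bases after a gene's start, were at hand for 32 of the 40 genes, and were not found for Pxn, Tgfb1i1, Myh11, Myocd, Rock1, Actg2, Tagln and Actb. The CArG box was searched as CCWWWWWWGG, with W for A or T, and boxes with a mismatch were not counted. Such a box was present on either strand in the windows of 7 of the 32 genes (21.9%), against 488 of 27025 genes in the whole table (1.81%). Srf held a pair of boxes, and their 30-base stretches overlap. Each line gives the box in capitals with 10 bases on each side, read 5′ to 3′ along the gene's strand.
Myl9 (chr2:156775293-156775322, plus strand): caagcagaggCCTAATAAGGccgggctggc
Acta1 (chr8:123894829-123894858, minus strand): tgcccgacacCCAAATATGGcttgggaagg
Cnn2 (chr10:79988534-79988563, plus strand): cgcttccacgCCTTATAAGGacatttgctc
Myl6 (chr10:128493040-128493069, minus strand): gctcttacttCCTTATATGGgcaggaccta
Actg1 (chr11:120348566-120348595, minus strand): ggaaagatcgCCATATATGGacatgttctg
Vcl (chr14:20929161-20929190, plus strand): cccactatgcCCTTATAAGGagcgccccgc
Srf (chr17:46556225-46556254, minus strand): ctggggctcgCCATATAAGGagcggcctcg
Srf (chr17:46556205-46556234, minus strand): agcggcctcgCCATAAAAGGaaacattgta
The boxes began between 50 and 227 bases before the start, closest in Myl6 and farthest in Vcl. They were found in the genes of the regulatory light chain (Myl9), skeletal actin (Acta1), the general calponin Cnn2, the essential light chain Myl6, cytoplasmic gamma actin (Actg1), vinculin (Vcl) and SRF itself. None of these is in the group restricted to smooth muscle, of which Actg2, Tagln, Myh11 and Myocd had no window. For the rest of that group, boxes with a mismatch or outside the window were not looked for. The full palindromic estrogen response element, GGTCANNNTGACC, was in none of the 32 windows and in 20 of the 27025 genes (0.074%). Several of these genes are textbook targets of SRF, so the share of boxes is a description only. A match of letters is not a binding site, and these windows leave out introns and distant elements.

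Arrays give a fluorescence signal per probe set and no read depth, so their number limits the precision. The array medians ran from 13.7 to 21.8 units as deposited, and each array was scaled to a common median before log2 transformation. Below, levels are in these scaled units, per-array values run in the order of replicates 1, 2 and 3, all differences are log2 values of E2 minus control, and n is 3 arrays per group. Levels of different probe sets are not compared, because probes differ in brightness. Control replicate 3 and E2 replicate 2 stood apart, with 18S ribosomal RNA signals of 281 and 288 units as deposited against 22.8 to 44.7 units on the other 4 arrays, and the results are given with and without them. The ratio of 3′ to 5′ signal of the array's actin control ran from 0.979 to 1.08. Probe sets were tested with limma where the deposited signal averaged at least 10 units in either group. That kept 79 of the 88 probe sets and 36 of the genes, 6 probe sets were below it, and 3 control probe sets of Actb were left out of the test. The brightest probe set stands for a gene unless stated. By the manufacturer's naming, the brightest probe sets of Acta2, Actg1, Cald1, Pxn and Srf match transcripts of several genes and that of Cnn3 holds probes that can cross-hybridize, so their signal may be shared with related transcripts.

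None of the 36 genes passed an adjusted p of 0.05 in limma with Benjamini-Hochberg adjustment over 14223 probe sets. Over all 8257 genes tested 0.908% passed it. At an unadjusted p of 0.05, 0 of the 36 genes were higher and 1, Cnn3, was lower, against 8.34% of all genes in either direction. The smallest adjusted p of limma was 0.506, for Cnn3. E2 and control arrays did not overlap in 2 genes, Cnn3 and Mef2a, both lower with E2, where 8.54% of all genes lay below control in this way and 6.01% above it. No gene of the 36 had all E2 arrays above all control arrays. Of the 36 differences 23 were negative, against 56.1% of all genes, and their median was -0.07 against -0.03 for all genes. Differences ran from -0.37 for Pxn, the adaptor paxillin, to 0.33 for Lmod1, the actin nucleator leiomodin. The 7 genes with a CArG box in their window had differences from -0.13 for Srf to 0.09 for Acta1.

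At the brightest probe sets, after scaling to the array median, the intervals bounded most of these differences. Intervals under other scalings are not given here. In 30 of the 36 genes (83.3%) the 95% interval of limma lay within a 1.5-fold change in either direction, and in 35 within a 2-fold change, Myh11 being the exception. Among all genes 46.3% had an interval within 1.5-fold. Over all 79 probe sets of these genes the share was lower, at 44 (55.7%), against 41.2% of all probe sets tested. Bright probe sets have tighter intervals, and among those with a mean of at least 100 units the shares were 27 of 29 genes here (93.1%) and 85.9% of all genes. The genes outside the 1.5-fold bounds were Myh11, Lmod1, Pxn, Tln1, Srf and Mef2c. For these a moderate difference was not detectable with 3 arrays a group, and its absence was not shown. Nor was absence shown for the other genes. Their bounds hold for the brightest probe set and for variation among these samples, which may be technical replicates.

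**Figure D1:**
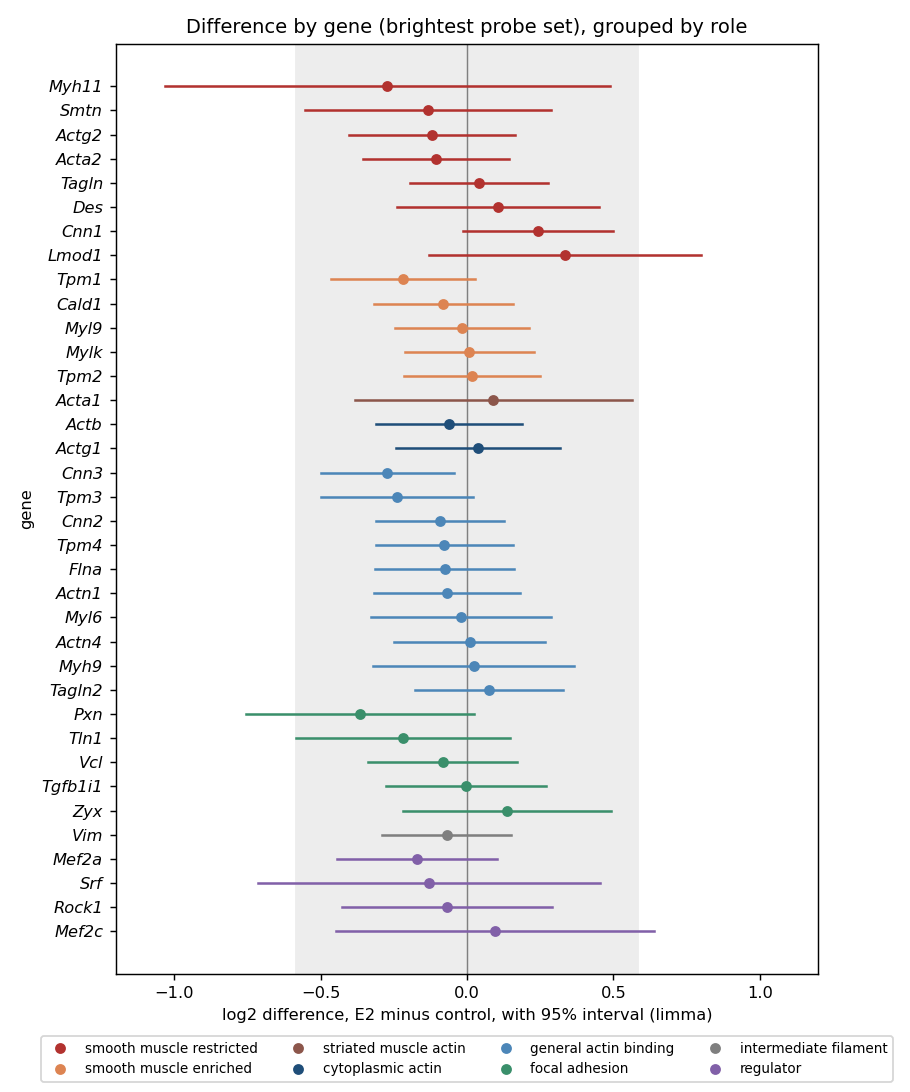
Log2 difference of E2 minus control for the 36 genes tested, 1 point per gene from its brightest probe set, grouped and colored by role, with 95% intervals from limma as bars and the range of 1.5-fold either way shaded. All intervals but that of Cnn3 include 0, and they are widest for Myh11.

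Genes restricted to smooth muscle split evenly, with 4 positive and 4 negative differences and a median of -0.03. Of the 9, 8 were tested and 0 passed the unadjusted or the adjusted threshold of limma. Acta2, smooth muscle alpha actin, read 4340.4, 3356 and 4496 units on the control arrays and 3651, 3594 and 3997 units on the E2 arrays. All 3 E2 arrays lay between the lowest and the middle control, and the difference was -0.11 ± 0.12 (SE; 95% interval -0.36 to 0.14). Actg2, the enteric gamma actin of visceral smooth muscle, read 719, 610.5 and 679.5 units on the control arrays and 673, 504 and 687 units on the E2 arrays. E2 replicate 2 was the lowest of the 6 arrays and the other E2 arrays lay among the controls, for a difference of -0.12 ± 0.13 (SE; 95% interval -0.40 to 0.17).

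Tagln, which encodes the actin-bundling protein transgelin (SM22), read 2409.8, 2041 and 2424 units on the control arrays and 2636, 2254 and 2183 units on the E2 arrays. The groups overlapped, and the difference was 0.04 ± 0.11 (SE; 95% interval -0.20 to 0.28). Cnn1, smooth muscle calponin, a brake on actomyosin, read 453, 427 and 433 units on the control arrays and 573, 451 and 535 units on the E2 arrays. Its controls were close together, and E2 replicates 1 and 3 lay above all of them while E2 replicate 2 lay among them. The difference was 0.24 ± 0.12 (SE; 95% interval -0.01 to 0.50), with a limma p of 0.0619 and an adjusted p of 0.65. Without both arrays of high 18S signal it was 0.33, with p 0.00614 and adjusted p 0.23 by limma.

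Myh11, the smooth muscle myosin heavy chain, read 108, 36.1 and 56.3 units on the control arrays and 83.6, 39.0 and 38.2 units on the E2 arrays. Replicate 1 was the highest of each group and the values in a group differed widely, and the interval of the difference was the widest of all 36 genes, at -0.27 ± 0.35 (SE; 95% interval -1.03 to 0.49). Smtn, encoding smoothelin of contractile smooth muscle cells, read 80.8, 106 and 96.5 units on the control arrays and 108, 91.1 and 63.4 units on the E2 arrays. E2 replicate 1 was the highest and E2 replicate 3 the lowest of the 6 arrays, and the difference was -0.13 ± 0.20 (SE; 95% interval -0.56 to 0.29).

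Lmod1 read 32.2, 33.5 and 36.5 units on the control arrays and 49.2, 32.0 and 50.1 units on the E2 arrays. As for Cnn1, E2 replicates 1 and 3 were above all controls, but here E2 replicate 2 was below them, and the difference was 0.33 ± 0.22 (SE; 95% interval -0.13 to 0.80). Des, the muscle intermediate filament desmin, read 438, 375 and 468 units on the control arrays and 554, 347 and 500.1 units on the E2 arrays. Again E2 replicates 1 and 3 were the 2 highest arrays and E2 replicate 2 the lowest, with a difference of 0.11 ± 0.16 (SE; 95% interval -0.24 to 0.45). Both probe sets of Myocd, the SRF partner myocardin, were below 10 units in both groups, at means of 1.21 and 5.29 units in control and 1.89 and 6.72 units with E2, and were not tested.

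**Figure D2:**
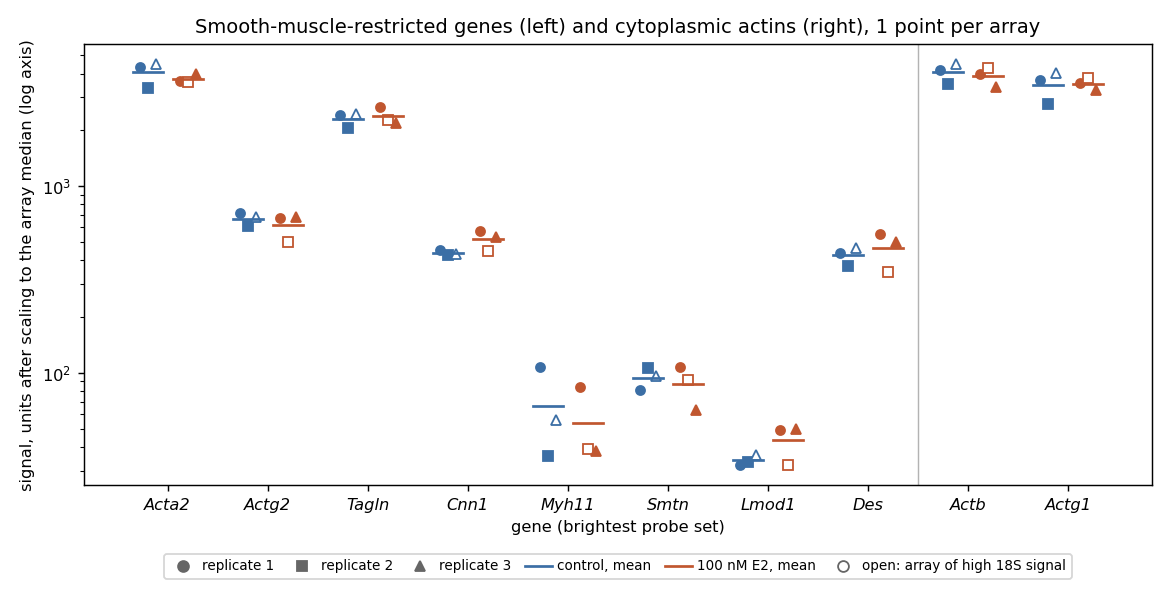
Signal of the 8 smooth-muscle-restricted genes tested and of the 2 cytoplasmic actins on each of the 6 arrays, in units after scaling to the array median, on a log axis. Blue is control and orange 100 nM E2, bars are group means, marker shapes give the replicate number and open markers the arrays of high 18S signal. The groups overlap in all 10 genes.

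The 5 genes enriched in smooth muscle had a median difference of -0.02, and 0 of them passed a threshold at their brightest probe set. All 5 intervals lay within a 1.5-fold change. At its brightest probe set Mylk had mean levels of 645 ± 18.4 units in control and 648 ± 15.99 units with E2. It was nearly level there, at 0.01 ± 0.10 (SE; 95% interval -0.21 to 0.23), while its dimmer probe sets had 0.35 and 0.24. Myl9, the regulatory light chain that Mylk acts on, had 1992 ± 170.4 units in control and 1968 ± 177 units with E2 and a difference of -0.02 ± 0.11 (SE; 95% interval -0.25 to 0.21). Both means differed by less than the SD within a group.

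Cald1, caldesmon, which holds actomyosin back until calcium signals arrive, had a difference of -0.08 ± 0.11 (SE; 95% interval -0.32 to 0.16). Tpm2, beta tropomyosin, had a difference of 0.02 ± 0.11 (SE; 95% interval -0.22 to 0.25). Tpm1, alpha tropomyosin, which lies along the actin filament and gates myosin, had 2924 ± 379 units in control and 2503 ± 212 units with E2 and a difference of -0.22 ± 0.11 (SE; 95% interval -0.46 to 0.03), with a limma p of 0.0767 and an adjusted p of 0.68. Acta1, skeletal muscle actin, was dim at 37.2 ± 4.96 units in control and 40.2 ± 10.2 units with E2, with a difference of 0.09 ± 0.22 (SE; 95% interval -0.38 to 0.56).

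The cytoplasmic actins, which build the filaments of nonmuscle cells, did not separate the groups. Actb, beta actin, read 4180.0, 3508 and 4487 units on the control arrays and 3960.5, 4281 and 3407 units on the E2 arrays. E2 replicate 3 was the lowest array and control replicate 3 the highest, and the difference was -0.06 ± 0.12 (SE; 95% interval -0.31 to 0.19). Actg1, cytoplasmic gamma actin, read 3695, 2738 and 4018 units on the control arrays and 3544, 3789 and 3271 units on the E2 arrays. All 3 E2 arrays lay inside the range of the controls, with a difference of 0.04 ± 0.13 (SE; 95% interval -0.24 to 0.32). The 3 control probe sets of Actb, which were not tested, had means of 4585, 3717 and 4425 units in control at the 3′ end, middle and 5′ end of the transcript. With E2 they were 4158, 3332 and 4060.1 units, and the groups overlapped in all 3.

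Vim, which encodes vimentin, the intermediate filament of mesenchymal cells, read 1737, 1818 and 1838 units on the control arrays and 1865, 1550.2 and 1736 units on the E2 arrays. E2 replicate 2 was the lowest array and E2 replicate 1 the highest, so the groups overlapped, and the difference was -0.07 ± 0.10 (SE; 95% interval -0.29 to 0.15). Its other probe sets had differences of -0.03 and 0.09.

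Among the 10 general actin-binding genes tested, 7 differences were negative and 3 positive, with a median of -0.07. Cnn3, the acidic calponin found in many nonmuscle cells, was the gene of smallest p in the whole set. It read 649, 664 and 709.7 units on the control arrays and 548, 539 and 587 units on the E2 arrays. Every E2 array was below every control array, including both arrays of high 18S signal. The difference was -0.27 ± 0.11 (SE; 95% interval -0.50 to -0.05), with a limma p of 0.022 and an adjusted p of 0.506, so it did not pass the adjusted threshold. Without the 2 arrays of high 18S signal it was -0.21, with p 0.0489 and adjusted p 0.505 by limma. The unadjusted p of limma was above 0.05 without control replicate 3, at 0.0518, and without E2 replicate 1, at 0.0654, with differences of -0.24 and -0.26.

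The other 5 probe sets of Cnn3 had negative differences too, from -0.43 to -0.12. They may share transcripts, and several hold probes that can cross-hybridize, so they are not independent readings. The difference was 0.24 for Cnn1, the calponin of smooth muscle, and -0.09 ± 0.10 (SE; 95% interval -0.31 to 0.13) for Cnn2, the neutral calponin. Whether they differ from that of Cnn3 was not tested.

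Tpm3, a tropomyosin of nonmuscle cells, had 732 ± 100.5 units in control and 616 ± 31.4 units with E2 and a difference of -0.24 ± 0.12 (SE; 95% interval -0.50 to 0.02), with a limma p of 0.0671 and an adjusted p of 0.664. The remaining 8 genes of this group had differences from -0.09 for Cnn2 to 0.07 for Tagln2, a transgelin of many cell types. Between them lay Tpm4 (-0.08), another nonmuscle tropomyosin, Flna (-0.08), the crosslinker filamin A, and Actn1 (-0.07) and Actn4 (0.01), the nonmuscle alpha-actinins. Myl6, the essential myosin light chain, was at -0.02, and Myh9, the heavy chain of nonmuscle myosin IIA, at 0.02. All 10 intervals of the group lay within a 1.5-fold change.

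Focal adhesion genes encode the proteins that tie actin filaments to integrins. Pxn read 251, 259.6 and 234 units on the control arrays and 211, 137 and 246 units on the E2 arrays. E2 replicate 2 was far below the other 5 arrays, and the difference of -0.37 ± 0.18 (SE; 95% interval -0.75 to 0.02) was -0.16 without both arrays of high 18S signal. Zyx, the tension-sensitive protein zyxin, read 520.2, 423 and 425 units on the control arrays and 622, 373 and 535 units on the E2 arrays, for a difference of 0.14 ± 0.17 (SE; 95% interval -0.22 to 0.49). E2 replicate 2 was again the lowest and E2 replicates 1 and 3 were the 2 highest. The remaining differences were -0.22 for Tln1, the integrin activator talin, -0.08 for Vcl, its partner vinculin, and -0.0031 for Tgfb1i1, the paxillin relative Hic-5.

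Of the 6 regulators 4 were tested, and 0 passed the unadjusted threshold of limma. Srf had 48.0 ± 11.5 units in control and 45.4 ± 16.3 units with E2 and a wide interval, with a difference of -0.13 ± 0.27 (SE; 95% interval -0.72 to 0.45), and its dimmer second probe set had 0.59. Mef2a, a MADS-box factor related to SRF, read 186, 172 and 167 units on the control arrays and 152, 153 and 161 units on the E2 arrays. The E2 arrays lay just below the controls without overlap, yet the limma p was 0.198, for a difference of -0.17 ± 0.13 (SE; 95% interval -0.44 to 0.10). Mef2c, of the same family, had 0.10, and Rock1, a kinase that keeps the light chain phosphorylated, had -0.07. In RNA of whole samples, a lower signal can come from fewer cells of a type or from less RNA per cell, and these cannot be told apart.

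Several probe sets were available for 20 of the 36 genes. In 10 of them all differences had the same sign, and in the other 10 both signs occurred. Over the 79 probe sets, 0 passed an adjusted p of 0.05, against 0.745% of all probe sets. At an unadjusted p of 0.05, 2 were higher and 4 lower, 6 of 79, where 7.99% of all probe sets passed in either direction. Of these 6, only the brightest probe set of Cnn3 was the one that stands for its gene.

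The smallest p belonged to a dim probe set of Tpm1, which read 82.7, 73.1 and 54.8 units on the control arrays and 47.9, 48.8 and 37.6 units on the E2 arrays. All E2 arrays were below all controls, and the difference was -0.64 ± 0.20 (SE; 95% interval -1.06 to -0.22), with a limma p of 0.00588 and an adjusted p of 0.284. The brighter Tpm1 probe sets had -0.22 and -0.12. A second probe set of Tpm3 read 293, 184 and 340.4 units on the control arrays and 137, 227 and 170.5 units on the E2 arrays. E2 replicate 2 lay among the controls and the other E2 arrays below them, for a difference of -0.60 ± 0.22 (SE; 95% interval -1.06 to -0.13) with a limma p of 0.0159. Its other 2 tested probe sets had -0.06 and -0.71. The probe set with -0.71 averaged 12.7 units in control and 7.75 with E2. It passed the filter through the control arrays, so its sign leans on the filter. A second probe set of Cnn3 read 149, 199 and 159 units on the control arrays and 115, 102 and 164 units on the E2 arrays. E2 replicate 3 lay among the controls, and the difference was -0.43 ± 0.18 (SE; 95% interval -0.82 to -0.04) with a limma p of 0.0318.

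On the positive side, a second probe set of Mylk read 249.6, 337 and 300.4 units on the control arrays and 383, 359 and 379 units on the E2 arrays. All E2 arrays were above all controls, with a difference of 0.35 ± 0.13 (SE; 95% interval 0.07 to 0.63) and a limma p of 0.0185, whereas the brightest Mylk probe set had 0.01. The same gene encodes long and short products from different promoters, and which of them each probe set reads was not examined. A dim second probe set of Tagln2 read 54.1, 89.2 and 97.0 units on the control arrays and 105, 97.3 and 144 units on the E2 arrays. Control replicate 1 was the lowest and E2 replicate 3 the highest, and the E2 arrays lay above all controls. The difference was 0.55 ± 0.22 (SE; 95% interval 0.08 to 1.02) with a limma p of 0.0249, beside 0.07 at the brightest.

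The second probe sets of Acta2 and Actb were dim. For Acta2 the means were 11.4 units in control and 13.4 with E2, and for Actb 29.3 and 28.4 units. One probe set each of Myh11, Des, Tpm3 and Mef2c was below 10 units in both groups and was not tested.

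**Figure D3:**
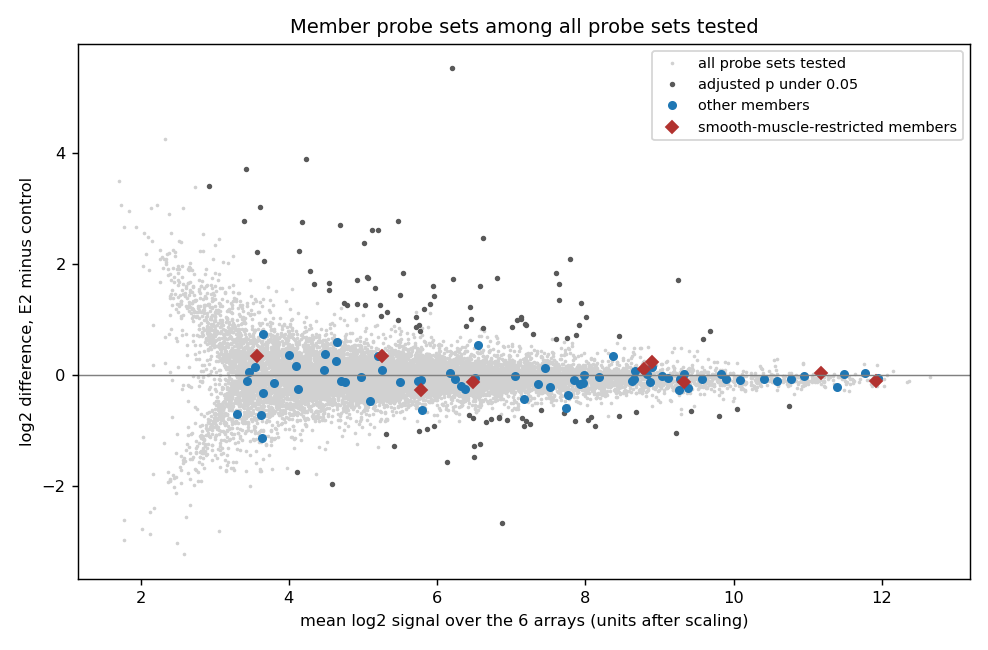
Log2 difference of E2 minus control (vertical axis) against the mean log2 signal over the 6 arrays (horizontal axis), 1 point per probe set. Light gray points are all 14223 probe sets tested, dark points the 106 with an adjusted p under 0.05 by limma, blue circles and red diamonds the 79 probe sets of the genes described here, none of which is dark. At high signal the colored points lie close to 0, and they spread at low signal as the others do.

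The highest and lowest values of the genes gathered on a few arrays. Counting the array on which each of the 36 genes was highest, control replicate 3 had 16 and control replicates 1 and 2 had 6 and 3, while E2 replicates 1 to 3 had 8, 1 and 2. The lowest value fell on E2 replicate 2 in 14 genes and on control replicate 2 in 11. The median deviation of the smooth-muscle-restricted genes from their mean over the 6 arrays was 0.02, -0.19 and 0.07 in control replicates 1 to 3 and 0.27, -0.18 and 0.07 in E2 replicates 1 to 3. That of the general actin-binding and adhesion genes, with the cytoplasmic actins, was 0.07, -0.10 and 0.10 in the controls and 0.02, -0.06 and -0.04 with E2. Each group thus held 1 array in which the smooth muscle genes were low, and neither set of values separated the groups.

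**Figure D4:**
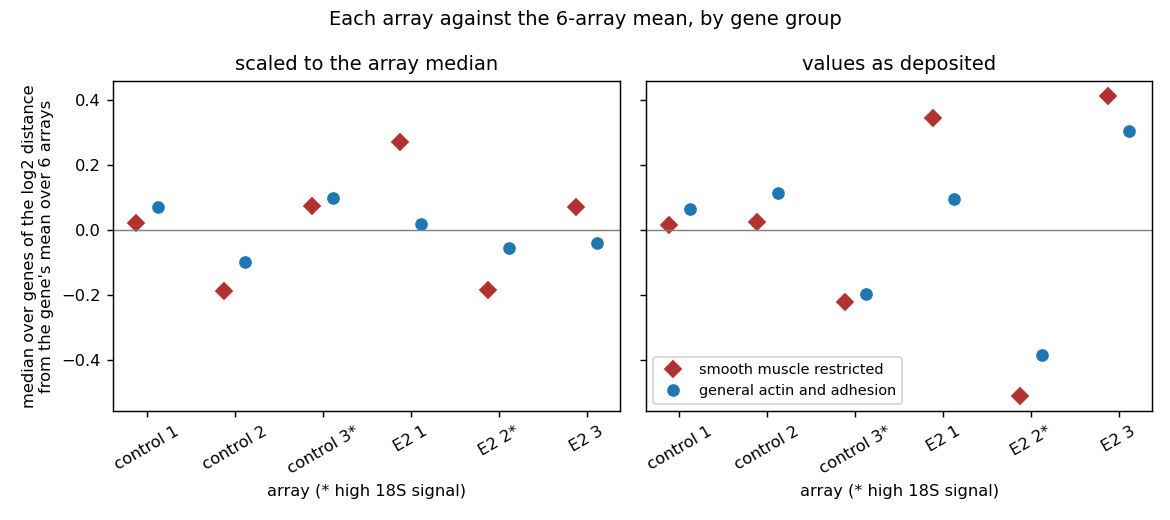
Median over genes of the log2 distance from each gene's mean over the 6 arrays, for the 8 smooth-muscle-restricted genes (red diamonds) and the 17 general actin and adhesion genes (blue circles), on each array, after scaling (left) and as deposited (right). After scaling, control replicate 2 and E2 replicate 2 are the low arrays of the smooth muscle genes and E2 replicate 1 the high one. As deposited, both arrays of high 18S signal, marked with an asterisk, lie below the others.

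With control replicate 3 and E2 replicate 2 left out, still 0 members passed the adjusted threshold of limma, but 4 were higher at an unadjusted p of 0.05, against 6.68% of all genes higher in that fit. They were Des, at 0.38 (p 0.00533, adjusted p 0.215), Cnn1, at 0.33, Lmod1, at 0.60 (p 0.0145, adjusted p 0.343), and Zyx, at 0.30 (p 0.0285, adjusted p 0.436). The same 4 genes, and no others, were higher at that threshold when E2 replicate 2 alone was left out, at 0.31, 0.34, 0.55 and 0.35, against 5.73% of all genes. Of the 4, Des, Cnn1 and Lmod1 are restricted to smooth muscle, yet Acta2, Actg2, Tagln, Myh11 and Smtn were not among them, and the median of the 8 restricted genes without both arrays was 0.07. None of the 4 reached the unadjusted threshold with all 6 arrays in the main setting, and Cnn1 reached it with all 6 under quantile normalization and with probe sets averaged by gene. On E2 replicate 2 all 4 were the lowest of the E2 arrays. On control replicate 3, the other array of high 18S signal, Des and Lmod1 were the highest of the controls, and Cnn1 and Zyx lay between the other 2. The part of the 18S signal in this was not tested.

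Other genes of the same machinery were read from a list of related genes. Among 29 further smooth muscle genes and SRF partners, 22 were tested, and 1 was lower and 0 higher at the adjusted threshold of limma. It was Pdlim3, the PDZ and LIM domain protein ALP that binds alpha-actinin. The study lists Pdlim3 among genes altered at all E2 doses it tested, of which these arrays hold only the highest. Pdlim3 was thus chosen in part on these arrays, and its direction here is no independent evidence. Pdlim3 read 30.4, 55.2 and 64.1 units on the control arrays and 12.5, 11.7 and 12.03 units on the E2 arrays. Every E2 array was below every control, and it fell by 1.98 ± 0.29 (SE) on the log2 scale, with a limma adjusted p of 0.00288. Without control replicate 3, where its level was highest, the adjusted p was 0.0512 for a difference of -1.76.

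Next in that list came Csrp2, the LIM protein CRP2 of smooth muscle, at 178, 197 and 179 units on the control arrays and 316, 216 and 302 units on the E2 arrays. Its groups did not overlap, and the difference of 0.57 ± 0.15 (SE; 95% interval 0.24 to 0.89) had a limma adjusted p of 0.151. It passed the adjusted threshold without E2 replicate 2, at 0.74 and adjusted p 0.00775, and when control replicate 3 was left out as well, at 0.72 and adjusted p 0.0114. Palld, the actin scaffold palladin, had a difference of 0.48 ± 0.15 (SE; 95% interval 0.16 to 0.80) and a limma adjusted p of 0.281. Over the 22 genes the median was -0.04, with 10 positive and 12 negative differences. Itga8 (1.60) and Kcnmb1 (0.97) averaged 5.21 and 6.37 units in control and passed the filter through the E2 arrays. On the negative side, Prkg1 (-0.32) averaged 11.7 units in control and 9.88 with E2. The signs of such dim genes lean on the filter.

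Markers of the cell types in the culture were read as well. All 10 mesenchyme markers were above the filter, and 8 of 9 smooth muscle markers, while 4 of 20 striated muscle markers and 4 of 9 epithelial markers were. Cdh1, Epcam, Trp63, Krt5 and Foxa1, the epithelial markers not tested, were below 10 units in both groups. Of all these, S100a4 among the mesenchyme markers and Krt18 among the epithelial markers were higher at the adjusted threshold, as was Cd34 among 3 endothelial markers tested of 7 listed. Cd34 averaged 5.54 units in control and passed the filter through the E2 arrays. Kdr and Emcn, the other endothelial markers tested, had differences of -0.03 and 0.0039. Pecam1, Cdh5, Tek and Tie1, the endothelial markers not tested, were below 10 units in both groups. S100a4 did not pass without control replicate 2 or E2 replicate 1, Cd34 not without control replicate 3 or any of the E2 arrays, and Krt18 not without any array other than E2 replicate 2. All 4 epithelial markers tested, Krt8, Krt14, Krt18 and Krt19, had positive differences, with a median of 1.10 and every E2 array above every control, but Krt8, Krt14 and Krt19 averaged under 10 units in control and passed the filter through the E2 arrays. Over these 4 tested markers alone, the summed signal was 47.5 to 72.9 units in control and 104 to 125 units with E2. Because the filter took in most of them through the E2 arrays, this sum is no evidence of a rise in epithelial signal. All 10 macrophage markers had negative differences, none past the adjusted threshold, with a median of -0.45 and a summed signal of 644 to 1072 units in control and 587 to 704 units with E2. The summed signal of the 8 tested smooth muscle markers was 6985 to 8689 units in control and 7312 to 8327 units with E2. Acta2 and Tagln, with control means of 4064 and 2291 units, made up most of this sum, so the other markers hardly weigh in it. Whether these other cells had a part in any difference above was not tested.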

How the data were processed

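RNA of 6 cell samples was measured on Affymetrix mouse 430A arrays. The authors extracted signals from the scans with the Affymetrix programs, Gene Expression Console and GeneChip Operating Software, and deposited linear intensity values for each probe set. Software versions, algorithm and scaling were not given in the sources used here. Groups and replicate numbers came from the labels.

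In R 4.3.3 each array was scaled to the common median over all probe sets but the array's controls. Probe sets averaging at least 10 units as deposited in either group were fitted on the log2 scale with lmFit and eBayes of limma 3.58.1, with a variance trend, two-sided, with Benjamini-Hochberg adjustment over 14223 probe sets. With 3 arrays against 3, an exact permutation test could not go below 0.1. The fit was tested on simulated data.

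Symbols came from the platform annotation, updated by gene identifier. 20393 probe sets had 1 symbol, 691 several and 1606 none listed, and 2 that pair Myl6 with other genes were not used. The brightest probe set, of highest mean log2 value, stood for a gene. Given per array were members past an unadjusted p of 0.05, every tested smooth-muscle-restricted member, both cytoplasmic actins and Vim. From the other lists reported, genes past an adjusted p of 0.05 were named, of which Pdlim3 is given per array. Pxn, Zyx, Mef2a and Csrp2 were given per array after their values were seen. The members and lists were chosen with earlier results of these data known. Promoter windows came from RefSeq on GRCm38.p6. Alternatives were other scalings, filters, pseudocounts and variance models, a replicate block, arrays left out, and probe sets averaged by gene. The results of 1 further gene list are not reported here.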

Additional observations from a re-analysis of the deposited data

How the results depend on the processing

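No member passed the adjusted threshold of limma under any of the 15 alternatives tried: values as deposited, quantile normalization, log2(value + 16), filters at none and at 100 units, no variance trend, the replicate block, probe sets averaged by gene, each array left out, and both arrays of high 18S signal left out. Counts at an unadjusted p of 0.05 moved. Higher members numbered 1 (Cnn1) with quantile normalization, 2 (Cnn1 and Tagln2) with the mean of probe sets, 4 with both high 18S arrays left out and 0 to 4 without single arrays. Lower members numbered 0 with the values as deposited or no variance trend, 2 with no filter or with the mean of probe sets, and 0 to 4 without single arrays, 4 (Acta2, Cnn3, Tpm1 and Tpm3) without control replicate 2 and 0 without control replicate 3 or E2 replicate 1. The median of the smooth-muscle-restricted genes stayed between -0.07 and 0.10, and that of the general actin and adhesion genes, -0.07, was 0.017 with quantile normalization and between -0.12, without control replicate 2, and 0.0014, without control replicate 3, when single arrays were left out.

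Same-numbered control and E2 arrays did not deviate together (correlations 0.01, -0.05 and -0.06). Such correlations cannot tell whether same-numbered samples had a common culture or litter, because noise of single arrays can hide it. With the replicate block 0 members were called, the smallest adjusted p among them was 0.674, the probe sets called numbered 61 higher and 27 lower in place of 70 and 36, and of the lists given here only the epithelial one changed its count, to 0.

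The sign of 26 of the 36 differences turned under at least 1 alternative, the largest of them in size being that of Myh11, and all turned values belonged to differences that passed no adjusted threshold. Without control replicate 3 and E2 replicate 2 these were Acta2 0.0014, Actg2 0.037, Actn1 0.00035, Myl9 0.099, Srf 0.20, Tgfb1i1 0.11, Tpm4 0.010 and Vim 0.018. With probe sets averaged by gene these were Acta2 0.12, Mef2c -0.11 and Srf 0.23. With quantile normalization these were Actb 0.034, Actn1 0.017, Cnn2 0.0090, Myl6 0.017, Myl9 0.061, Tgfb1i1 0.045, Tpm4 0.015 and Vim 0.014. With the values as deposited these were Myl6 0.040, Myl9 0.043 and Tgfb1i1 0.058. Without single arrays the turned genes ranged as follows: Acta1 -0.11 to 0.23, Actb -0.16 to 0.029, Actg1 -0.13 to 0.15, Actg2 -0.20 to 0.025, Actn1 -0.18 to 0.021, Actn4 -0.076 to 0.078, Des -0.031 to 0.31, Mef2c -0.0099 to 0.23, Myh11 -0.64 to 0.15, Myh9 -0.15 to 0.22, Myl6 -0.097 to 0.070, Myl9 -0.090 to 0.051, Mylk -0.010 to 0.030, Rock1 -0.21 to 0.013, Smtn -0.30 to 0.081, Srf -0.34 to 0.21, Tagln -0.043 to 0.093, Tagln2 -0.014 to 0.13, Tgfb1i1 -0.051 to 0.090, Tpm2 -0.060 to 0.12, Tpm4 -0.15 to 0.0014, Vcl -0.15 to 0.025, Vim -0.13 to 0.0021 and Zyx -0.024 to 0.35.

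The smooth muscle and SRF list had 2 genes called (Csrp2 and Pdlim3) with quantile normalization and with both high 18S arrays left out, 0 with a filter at 100 units or no variance trend, and 0 to 2 without single arrays. S100a4 passed 0 times as deposited and with no variance trend, and the mesenchyme count was 0 to 1 without single arrays. The epithelial count, Krt18, was 0 as deposited, with a filter at 100 units, with no variance trend, with the block and, without single arrays, 0 to 1. The macrophage count was 1 (C1qb) with log2(value + 16) and 0 to 1 without single arrays. The endothelial count, Cd34, was 0 with a filter at 100 units, with no variance trend and with both high 18S arrays left out, and 0 to 1 without single arrays. Pdlim3, Krt18 and Cd34 averaged under 100 units in both groups, so the filter at 100 units removed them before testing. The causes of the other changes were not tested. Arrays give no read depth, and dim probe sets had the widest intervals.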
